A study of Mus musculus with 12 samples.

Results

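The 33 genes described here encode the enzymes and regulators by which a cell makes cholesterol and fatty acids. They are a list of symbols compiled for this description from textbook pathways, with earlier results of these data known. Each symbol matched 1 of the 25904 genes of the deposited table. Expression was measured by RNA sequencing in 12 libraries of sorted cells from C57BL/6 mice, 3 in each of 4 groups. WT microglia, macrophages resident in the central nervous system (CNS), came from Tgfbr2 fl/fl mice, and KO microglia from Cx3cr1CreER/+ Tgfbr2 fl/fl mice, in which tamoxifen activates a Cre recombinase expressed from 1 Cx3cr1 allele and deletes the type II receptor for TGF-beta. WT and KO macrophages descended from Tgfbr2 fl/fl or Cx3cr1CreER/+ Tgfbr2 fl/fl bone marrow. The marrow had been transplanted into irradiated Cx3cr1CreER/+ R26DTA/+ recipients, whose own microglia were depleted by tamoxifen 6 weeks later, and the cells sorted were those that refilled the CNS. Mice of all 4 groups received 3 daily injections of 5 mg tamoxifen, and cells were collected 18 to 22 days afterwards.

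Several features limit these groups as models. CreER was carried by the KO cells and not by the WT cells, it acts in any cell that expresses Cx3cr1, and cells of 1 to 5 mice were pooled for each library. Live cells without Ly6C and with CD11b were sorted, at low F4/80 for WT and at high F4/80 for KO, so genotype and gate cannot be told apart. Only the macrophage groups came from irradiated and transplanted mice depleted of microglia, so cell origin cannot be told apart from that treatment. The labels used here state no age. Because these are bulk samples, fewer cells that express a gene and less RNA per cell cannot be told apart.

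Depth was 2615404 to 6364994 reads in genes per library, so that 1 read was worth 0.718 to 1.601 normalized counts (reads divided by a size factor that scales each library to a common depth). Tgfbr2 itself stood at 2495 to 3172 normalized counts in WT and 2078 to 2256 in KO microglia, and at 2997 to 3486 in WT and 2068 to 2469 in KO macrophages, lower in every KO library than in every WT library of the same origin. Over WT microglia, KO microglia, WT macrophages and KO macrophages in that order, Adgre1, which encodes F4/80, averaged 1409, 3862, 2598 and 3792, and Itgam, which encodes CD11b, averaged 7457, 1625, 2997 and 1593. In the same order Cx3cr1, of which KO cells have 1 intact allele, averaged 19192, 481, 7919 and 1443. The 6 macrophage genes Csf1r, Aif1, Itgam, Fcgr1, Tyrobp and Ptprc averaged 584 or more in every group. KO macrophage replicate 1, the shallowest library, correlated least with the others of its group (mean Pearson r across genes 0.936, against 0.958 for each of the other two). The Y-linked gene Ddx3y was at 470 to 508 in the 3 KO microglia libraries and at 0 to 8.90 in 2 of the 3 libraries of each other group, so the share of male cells differed between pools. Replicate numbers only name libraries in the order of deposit, and p-values measure the spread between pools.

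Cholesterol synthesis starts from acetyl-CoA, passes through mevalonate and the isoprenoid farnesyl diphosphate, joins farnesyl units into squalene, closes squalene into lanosterol and trims lanosterol to cholesterol. Fatty acid synthesis starts from the same acetyl-CoA, which ATP-citrate lyase releases from citrate, and ends with saturated chains that desaturases and elongases remodel. SREBP transcription factors, encoded by Srebf1 and Srebf2, switch on both branches when sterol in the endoplasmic reticulum is low. The escort protein SCAP carries them to the Golgi for cleavage, and INSIG proteins hold SCAP back when sterol is abundant. In the CNS, astrocytes and myelinating oligodendrocytes are known for high sterol synthesis, and microglia take up and export lipid as well as making it.

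Levels of the 33 genes spanned a wide range when divided by the length of their annotated exons. In WT microglia, Acly averaged 129 normalized counts per kilobase, Fads1 78.7, Scd2 65.4 and Ebp 58.6, and these 4 genes stood above the other 29. Srebf1 averaged 31.4 and Srebf2 20.4 per kilobase, Hmgcs1 19.1 and Fasn 15.8, and the other genes of the mevalonate and squalene steps lay between 0.458 (Idi1) and 15.2 (Msmo1). Idi1, Fdps, Sqle, Me1, Scd1 and Fads2 were the 6 genes that did not reach 10 normalized counts in at least 3 libraries and were not tested, and the other 27 were. Sqle, the squalene epoxidase and a rate-limiting enzyme of the later pathway, was at 4.41, 2.58 and 1.03 normalized counts in WT microglia and at 0.982, 4.92 and 9.65 in KO microglia. It stood at 1.82, 2.54 and 3.29 in WT macrophages and at 4.80, 3.49 and 5.03 in KO macrophages. These values stand for 8, 18, 8 and 14 reads per group; the genotypes overlapped in microglia, the KO libraries lay above the WT libraries in macrophages, and no test was made at this depth.

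**Figure D1:**
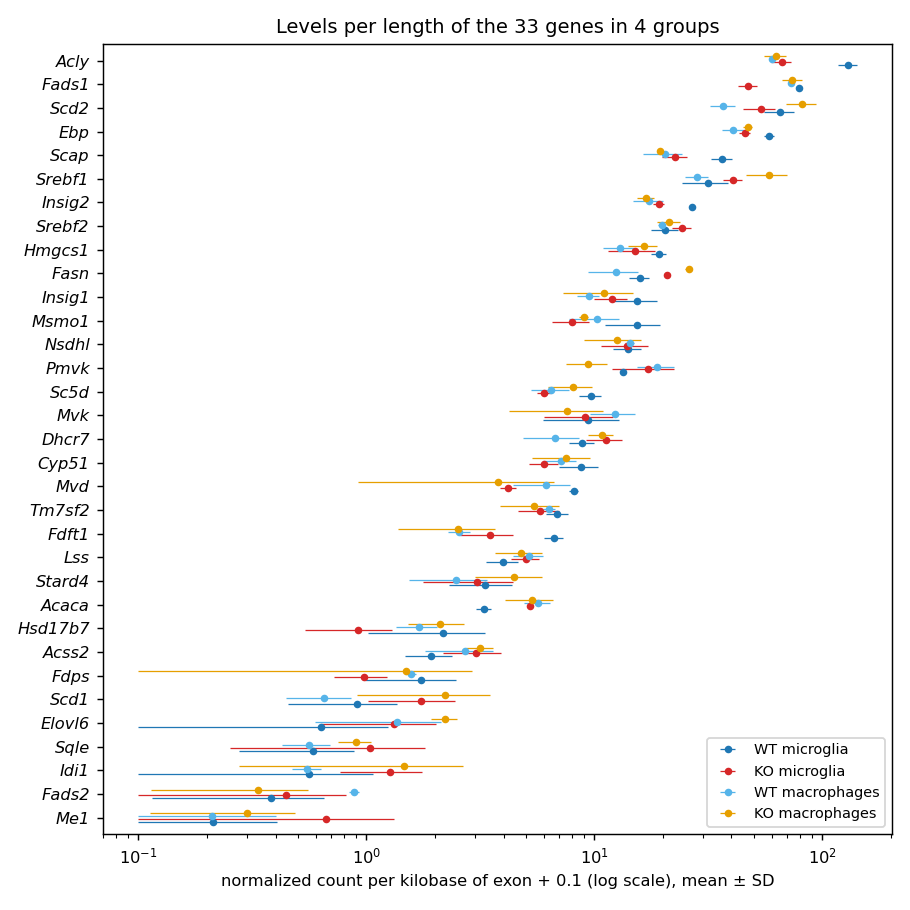
Mean normalized count per kilobase of exon (plus 0.1, log scale) of the 33 genes, with points for the 4 groups in colour and bars for the SD of 3 libraries, cut off at 0. Acly leads in WT microglia at 129, and Sqle, Idi1, Fads2 and Me1 lie lowest in that group.

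Counted over the whole list, 8 of the 33 genes fell and 2 rose in KO microglia, 17 were tested without passing and 6 were not tested. Of all 12519 genes tested, 20.6% fell and 21.9% rose in that comparison. The median log2 change of the 27 tested genes was -0.29, against -0.01 over all genes tested. In KO macrophages 4 of the 33 genes (27 tested) rose and 1 fell, against 16.0% and 15.4% of all genes tested. The median of the 27 genes was 0.04 against 0.00 over all genes. No called gene of the list changed by more than 2.21-fold (Scd2) in these 2 comparisons. Single libraries moved these counts: 5 genes fell without KO microglia replicate 1 or 2 or WT microglia replicate 1 or 2, and 1 rose without any 1 of the KO microglia libraries or WT microglia replicate 2. In macrophages 0 fell without WT replicate 2 and 2 without KO replicate 3. With Ddx3y as a covariate, or with no filter on low values, 5 genes fell in KO microglia. Acly, Fads1, Scap, Msmo1 and Acaca in microglia and Srebf1, Fasn and Scd2 in macrophages passed in all fits tried.

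Among the 6 genes of the mevalonate steps, none passed the test in KO against WT microglia, and 1 fell in KO against WT macrophages. Hmgcs1, the cytosolic HMG-CoA synthase that commits acetyl units to the pathway, was at 94.3, 88.9 and 80.7 normalized counts in WT microglia and at 52.0, 84.6 and 69.1 in KO microglia. It was at 55.5, 52.1 and 69.1 in WT macrophages and at 64.0, 75.9 and 86.2 in KO macrophages. The WT and KO libraries overlapped within each origin, and the KO effects of -0.38 ± 0.19 (log2 ± SE, adjusted p = 0.136) in microglia and 0.35 ± 0.19 (adjusted p = 0.189) in macrophages did not pass. Pmvk, the phosphomevalonate kinase, was at 31.9, 38.1 and 26.3 in WT macrophages and at 12.8, 15.7 and 19.4 in KO macrophages. The fall by 0.97 ± 0.28 on the log2 scale passed the test (adjusted p = 0.0166, limma), with no overlap between the groups, and the call was lost without WT macrophage replicate 2 (adjusted p = 0.0688). Its KO effect in microglia was 0.31 ± 0.28 (adjusted p = 0.413). Mvk, the mevalonate kinase, and Mvd, the mevalonate decarboxylase, did not pass in either origin. Mvd stood at 14.2 to 15.5 in WT and 6.88 to 8.04 in KO microglia without overlap, but its log2 change of -0.89 ± 0.44 had an adjusted p of 0.119. It was called in a fit of the microglia libraries alone and, in macrophages, without KO macrophage replicate 3. Idi1, which isomerizes the isoprenoid unit, ranged from 0 to 9.60 normalized counts and Fdps, the farnesyl diphosphate synthase, from 2.15 to 12.8 over the 12 libraries, and the highest value of each was in KO macrophage replicate 1.

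In the steps from squalene to cholesterol, 4 of 11 genes (10 tested) fell in KO microglia and none rose. Msmo1, a sterol C4-methyl oxidase, was at 95.2, 119 and 67.3 normalized counts in WT microglia and at 38.3, 52.1 and 55.5 in KO microglia. Every KO library lay below every WT library, and Msmo1 fell by 0.91 ± 0.24 on the log2 scale (adjusted p = 0.00539). In macrophages Msmo1 was at 46.4 to 77.5 in WT and 53.1 to 57.6 in KO libraries, which overlapped (log2 -0.16 ± 0.24, adjusted p = 0.644). Ebp, the sterol isomerase of the pathway and an X-linked gene, was at 136, 142 and 128 in WT and at 98.2, 110 and 108 in KO microglia and fell by 0.36 ± 0.13 (adjusted p = 0.0312). Sc5d, the sterol C5-desaturase, was at 46.7, 41.2 and 51.7 in WT and at 26.5, 30.5 and 29.7 in KO microglia and fell by 0.67 ± 0.23 (adjusted p = 0.0311). These groups did not overlap, but the calls of Ebp and Sc5d were not held in all fits. With Ddx3y as a covariate, Ebp had an adjusted p of 0.139 and Sc5d of 0.0587. Leaving out KO microglia replicate 1 or 3 or WT microglia replicate 1 or 2 ended the call of Ebp (adjusted p = 0.0579 to 0.104), and leaving out KO microglia replicate 1, 2 or 3 or WT microglia replicate 1 or 3 that of Sc5d (0.0546 to 0.0958).

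Fdft1, the squalene synthase that makes the first step specific to sterols, also fell in KO microglia, from 24.7, 29.6 and 29.0 to 10.8, 13.8 and 18.5 normalized counts (log2 -0.93 ± 0.35, adjusted p = 0.0430). It was low in macrophages of either genotype (WT 9.10, 11.4 and 10.7, KO 6.403, 15.7 and 8.62), where the genotypes overlapped. Its call in microglia was lost without any 1 of the WT microglia libraries, KO microglia replicate 1 or 2, or WT macrophage replicate 1 or 3 (adjusted p = 0.0517 to 0.1485). The exons of Fdft1 share 774 bases with those of Ctsb, a cathepsin gene on the opposite strand, and reads of the 2 genes cannot be told apart there because the strand setting of the counting is not known. Ctsb rose from 5252 ± 399 to 16840 ± 420 normalized counts in KO microglia (SD, n = 3), and its part in the Fdft1 counts was not tested. The exons of Cyp51 share 166 bases with Akap9, those of Srebf1 share 109 with Rai1 and those of Acss2 share 395 with Gss, each on the opposite strand, and those of Tm7sf2 share 532 with Vps51 on its own strand.

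Dhcr7, the 7-dehydrocholesterol reductase that ends the pathway, rose in KO macrophages. It was at 32.8, 31.8 and 51.0 normalized counts in WT and at 52.8, 67.2 and 66.1 in KO macrophages, a log2 change of 0.70 ± 0.22 (adjusted p = 0.0252) without overlap. The nearest libraries were WT replicate 3 and KO replicate 1, and the call ended without KO macrophage replicate 2 or 3 or WT macrophage replicate 1 or 2 (adjusted p = 0.0644 to 0.0962) and in a fit of the macrophage libraries alone (0.0729). It was the only gene of the 11 called in macrophages. Lss, the lanosterol synthase, Cyp51, the lanosterol demethylase, Tm7sf2, a sterol C14-reductase, and Nsdhl, an X-linked sterol dehydrogenase, did not pass in any comparison. Hsd17b7, the sterol ketoreductase, had the most negative KO effect of the tested genes in microglia at log2 -1.11 ± 0.47, but at 1.97 to 16.7 normalized counts it did not pass (adjusted p = 0.0736) except without WT microglia replicate 3. Summed over the 11 genes, the normalized count of microglia was 517 ± 37.2 (WT) and 415 ± 28.8 (KO), and that of macrophages was 401 ± 16.6 (WT) and 431 ± 22.1 (KO; SD, n = 3).

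**Figure D2:**
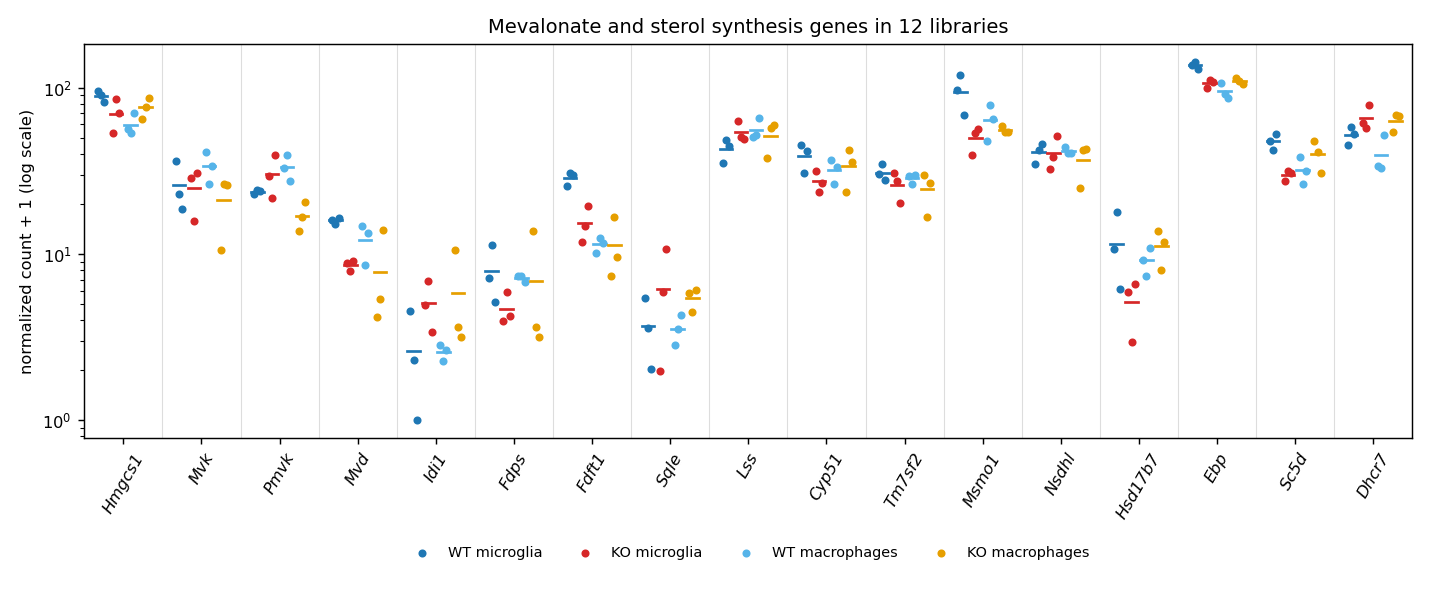
Normalized count + 1 (log scale) of the 17 genes of the mevalonate steps and of the steps from squalene to cholesterol in 12 libraries; each point is a library, each bar a group mean and each colour a group. The WT microglia points of Fdft1, Msmo1, Ebp and Sc5d lie above the KO microglia points, while Sqle, Idi1 and Fdps lie near the floor in all groups.

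RefSeq promoter entries on GRCm38.p6 were at hand for 26 of the 33 genes, with 35 annotated starts, and the 250 bases upstream of each start were searched on both strands. The motifs were the sterol regulatory element that SREBP proteins bind, searched as TCACNCCA, and the CCAAT box of the NF-Y factor that acts beside them, and a CCAAT box can share its first letters with the end of a TCACNCCA match. The CCAAT box occurred at 62.9% of the 35 starts, against 33.8% of 32851 starts of all genes. TCACNCCA occurred at 8.57% of the 35 starts (1 each of Hmgcs1, Msmo1 and Srebf2) and at 3.67% of all starts. Those promoters are printed because they hold both motifs. Fasn and Acly follow because Fasn rose with KO in both origins and Acly fell in KO microglia: Fasn has 3 CCAAT boxes and no TCACNCCA, and Acly has neither. Capitals mark the matches on either strand, each sequence runs 5′ to 3′ towards the gene start, and a match is a description of letters, not of binding.
Hmgcs1, chr13:119690101-119690350, plus strand: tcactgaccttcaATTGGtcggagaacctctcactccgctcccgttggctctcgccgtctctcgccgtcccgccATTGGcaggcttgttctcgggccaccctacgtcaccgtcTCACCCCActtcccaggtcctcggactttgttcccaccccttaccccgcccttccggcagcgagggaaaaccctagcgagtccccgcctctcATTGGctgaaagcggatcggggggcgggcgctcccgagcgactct
Msmo1, chr8:64733579-64733828, minus strand: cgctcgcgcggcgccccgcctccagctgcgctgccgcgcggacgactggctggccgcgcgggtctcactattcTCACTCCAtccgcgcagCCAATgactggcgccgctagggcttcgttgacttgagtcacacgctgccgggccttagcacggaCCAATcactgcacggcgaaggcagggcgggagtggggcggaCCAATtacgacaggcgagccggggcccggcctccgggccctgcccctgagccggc
Srebf2, chr15:82147019-82147268, plus strand: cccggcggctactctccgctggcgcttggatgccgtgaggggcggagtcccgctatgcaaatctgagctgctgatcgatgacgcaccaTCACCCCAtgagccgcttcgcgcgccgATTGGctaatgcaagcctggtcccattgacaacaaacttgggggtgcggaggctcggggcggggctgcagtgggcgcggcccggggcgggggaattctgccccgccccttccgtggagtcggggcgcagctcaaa
Fasn, chr11:120824548-120824797, minus strand: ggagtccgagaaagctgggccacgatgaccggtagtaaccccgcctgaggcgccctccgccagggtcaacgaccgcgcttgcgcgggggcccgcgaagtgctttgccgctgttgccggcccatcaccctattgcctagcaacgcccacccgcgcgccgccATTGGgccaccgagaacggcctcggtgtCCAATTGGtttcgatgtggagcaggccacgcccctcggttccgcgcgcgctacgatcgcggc
Acly, chr11:100528001-100528250, minus strand: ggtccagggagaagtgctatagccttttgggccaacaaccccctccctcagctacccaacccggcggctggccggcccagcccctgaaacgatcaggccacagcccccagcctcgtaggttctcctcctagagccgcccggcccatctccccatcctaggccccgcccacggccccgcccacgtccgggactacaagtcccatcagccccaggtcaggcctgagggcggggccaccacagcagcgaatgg
Of the 3 genes with both motifs, Msmo1 fell in KO microglia, and Hmgcs1 and Srebf2 did not pass there or in KO macrophages.

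Among the 6 genes of sterol sensing and transport, Scap and Insig2 fell in KO microglia and Srebf1 rose in KO macrophages. Scap, the sterol sensor that escorts SREBP proteins, was at 278, 238 and 292 normalized counts in WT microglia and at 143, 176 and 185 in KO microglia. It fell by 0.68 ± 0.15 on the log2 scale (adjusted p = 0.00135), and no library of 1 group reached the other. In macrophages Scap was at 119 to 178 in WT and 142 to 146 in KO libraries (log2 -0.05 ± 0.15, 95% interval -0.36 to 0.26). Insig2, a retention protein for SCAP, was at 91.7, 94.0 and 93.1 in WT and at 68.7, 61.9 and 68.3 in KO microglia. The WT values lay close together above all KO values, and Insig2 fell by 0.48 ± 0.16 (adjusted p = 0.0222). That call ended without KO microglia replicate 2 or WT microglia replicate 2 (adjusted p = 0.0762 and 0.0568) and with Ddx3y as a covariate (0.0720). Insig1, its SREBP-induced relative, was at 34.8 to 54.9 in WT and 29.7 to 41.2 in KO microglia, which overlapped (adjusted p = 0.357).

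Srebf1, which encodes the SREBP isoforms that favour fatty acid genes, was at 175, 139 and 161 normalized counts in WT macrophages and at 402, 269 and 312 in KO macrophages. It rose by 1.03 ± 0.17 on the log2 scale, 2.04-fold (adjusted p = 0.000364), and the lowest KO library lay well above the highest WT library. In microglia it was at 213, 184 and 132 in WT and at 233.7, 205 and 248 in KO libraries, which overlapped (log2 0.39 ± 0.17, adjusted p = 0.0832), and it was called there without WT microglia replicate 1 or without KO macrophage replicate 1 and with Ddx3y as a covariate. The difference of the KO effects between origins, 0.64 ± 0.25, did not pass (adjusted p = 0.0712) but was called without KO macrophage replicate 2 or WT microglia replicate 3. Srebf2, whose product favours sterol genes, stood at 129 to 191 in all 12 libraries. Its KO effect was 0.25 ± 0.13 in microglia (95% interval -0.03 to 0.52) and 0.10 ± 0.13 in macrophages (-0.18 to 0.38). Stard4, a cytosolic sterol carrier, ranged from 8.84 to 32.0 over the libraries and passed in no comparison.

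Of the 5 genes of carbon supply and fatty acid synthesis, Acly fell and Acaca and Fasn rose in KO microglia, and Fasn rose in KO macrophages. Acly, the ATP-citrate lyase that supplies acetyl-CoA to both pathways, was at 647, 647 and 757 normalized counts in WT microglia and at 320, 341 and 390 in KO microglia. It fell by 0.96 ± 0.10 on the log2 scale, to 0.51 of the WT level (adjusted p = 2.03e-06). In macrophages it was at 324, 306 and 323 in WT and 295, 324 and 369 in KO libraries, so that 3 of the 4 groups lay together and WT microglia lay above them. The KO effect in macrophages was 0.04 ± 0.10 (95% interval -0.18 to 0.27), and the difference between the origins was 1.01 ± 0.15 (adjusted p = 0.00014).

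Acaca, the acetyl-CoA carboxylase that makes malonyl-CoA, moved the other way in microglia. It was at 52.0, 51.5 and 59.0 normalized counts in WT and at 86.4, 86.5 and 88.4 in KO microglia, a rise of 0.68 ± 0.18 on the log2 scale (adjusted p = 0.00692). In macrophages the genotypes overlapped at 80.1 to 102 in WT and 65.6 to 108 in KO libraries (log2 -0.11 ± 0.18, adjusted p = 0.695), and WT microglia were the lowest of the 4 groups. Fasn, the fatty acid synthase, rose in both origins. It was at 161, 164 and 193 in WT and at 225, 221 and 235 in KO microglia (log2 0.40 ± 0.14, adjusted p = 0.0357), and at 127, 107 and 172 in WT and 282, 293 and 275 in KO macrophages (log2 1.09 ± 0.14, adjusted p = 3.66e-05). The groups did not overlap in either origin. The smaller rise, in microglia, became 0.23 with Ddx3y as a covariate (adjusted p = 0.240). It also lost its call without KO microglia replicate 1, 2 or 3 or WT microglia replicate 1 or 2 (adjusted p = 0.0671 to 0.113). Acss2, which makes acetyl-CoA from acetate, was at 15.5 to 39.3 over all libraries and passed in no comparison. Me1, the malic enzyme that supplies NADPH, held 1 read in all WT and 7 in all KO microglia libraries together, and 1 and 3 in the macrophage libraries.

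Among the 5 genes of desaturation and elongation, Fads1 fell in KO microglia and Scd2 rose in KO macrophages. Fads1, the delta-5 desaturase of polyunsaturated fatty acids, was at 381, 381 and 374 normalized counts in WT microglia and at 240, 201.6 and 239 in KO microglia. It fell by 0.74 ± 0.10 on the log2 scale (adjusted p = 1.24e-05). WT macrophages were at 350, 353 and 352 and KO macrophages at 397, 333 and 338, close to WT microglia, so that KO microglia were the low group (KO effect in macrophages 0.01 ± 0.10, 95% interval -0.19 to 0.22). Fads2, the delta-6 desaturase whose gene lies beside Fads1, had 3, 4, 8 and 3 reads in WT microglia, KO microglia, WT macrophages and KO macrophages.

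Scd2, a stearoyl-CoA desaturase that makes monounsaturated chains, was at 205, 173 and 224 normalized counts in WT macrophages and at 376, 447 and 510 in KO macrophages. It rose by 1.14 ± 0.15 on the log2 scale, 2.21-fold (adjusted p = 4.11e-05). In microglia it was at 373, 401 and 298 in WT and 240, 312 and 327 in KO libraries, which overlapped (log2 -0.29 ± 0.15, adjusted p = 0.146). The paralogue Scd1 was far lower in every group, at 3.95 ± 2.22 in WT and 7.98 ± 3.49 in KO microglia and at 2.70 ± 1.02 in WT and 10.3 ± 6.35 in KO macrophages (SD, n = 3). Per kilobase, Scd2 averaged 65.4 and Scd1 0.807 in WT microglia. Paralogues of near-identical sequence can exchange reads, and how the counting treated such reads is not known. Elovl6, the elongase of saturated chains, ranged from 1.03 to 14.8 and passed in no comparison with all libraries. Its log2 change of 1.24 in KO microglia, the most positive of the tested genes, was called only without WT microglia replicate 1. The summed level of the 5 genes in microglia was 744 ± 56.6 (WT) and 536 ± 41.0 (KO), and in macrophages it was 566 ± 28.4 (WT) and 825 ± 37.0 (KO). Almost all of that sum came from Fads1 and Scd2 in every group, so it does not describe the other genes of the step.

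**Figure D3:**
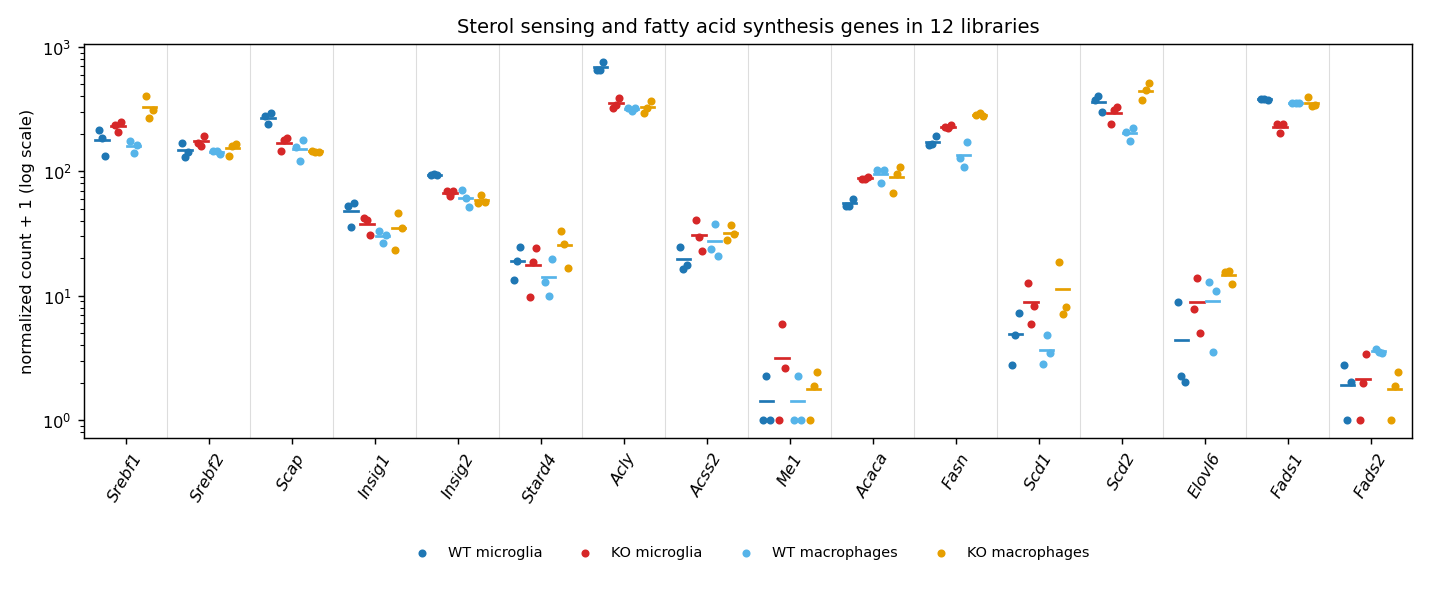
Normalized count + 1 (log scale) of the 16 genes of sterol sensing, fatty acid synthesis, desaturation and elongation in 12 libraries; each point is a library, each bar a group mean and each colour a group. WT microglia stand apart at Acly (647 to 757), KO microglia at Fads1 (201.6 to 240), and the mean of KO macrophages is highest at Srebf1, Fasn and Scd2.

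The KO effects of the 2 origins were then compared directly, as the difference between the change in macrophages and the change in microglia, in which no library is shared between the 2 changes. Of the 33 genes (27 tested), 7 had a higher KO effect in macrophages and 2 a lower one, where 13.0% and 12.9% of all genes tested did. The higher count was 4 without KO microglia replicate 1, WT macrophage replicate 2 or WT microglia replicate 1, and the lower count was 0 or 1 without any 1 of the libraries listed below for Pmvk or Acaca. Scd2 (difference 1.43 ± 0.21, adjusted p = 0.000164), Acly (1.01 ± 0.15) and Fads1 (0.75 ± 0.14, adjusted p = 0.000735) passed in all fits tried. Fasn differed by 0.69 ± 0.20 (adjusted p = 0.0203), and its call ended without WT macrophage replicate 1 or WT microglia replicate 3 (adjusted p = 0.0503 and 0.0502). The remaining differences were those of Ebp (0.57 ± 0.18, adjusted p = 0.0268), Sc5d (0.97 ± 0.33, 0.0425), Scap (0.63 ± 0.21, 0.0357), Acaca (-0.78 ± 0.26, 0.0357) and Pmvk (-1.28 ± 0.40, 0.0278), and each of these was lost in 7 to 12 of the other fits. With 1 library left out, Ebp was lost without KO microglia 1, WT macrophages 2 or 3, or WT microglia 1 or 2 (adjusted p = 0.0525 to 0.0672). Pmvk was lost without KO microglia 1 or 3, WT macrophages 1 or 2, or WT microglia 1 (0.0539 to 0.0780). Scap was lost without KO macrophages 2 or 3, KO microglia 1 or 2, WT macrophages 1 or 2, or WT microglia 1 or 3 (0.05005 to 0.0963). Acaca was lost without KO macrophages 1, any KO microglia library, WT macrophages 1 or 3, or WT microglia 1 or 2 (0.0551 to 0.0863). Sc5d was lost without KO macrophages 1 or 2, any KO microglia library, WT macrophages 2 or 3, or WT microglia 1 or 3 (0.0634 to 0.0968). Hmgcs1, which did not pass (0.73 ± 0.28, adjusted p = 0.0657), was called without KO macrophages 1 or KO microglia 2, and Msmo1 without WT microglia 3. Among the differing genes, Acly, Fads1, Scap, Ebp and Sc5d had fallen in KO microglia with KO effects between -0.05 and 0.30 in macrophages.

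**Figure D4:**
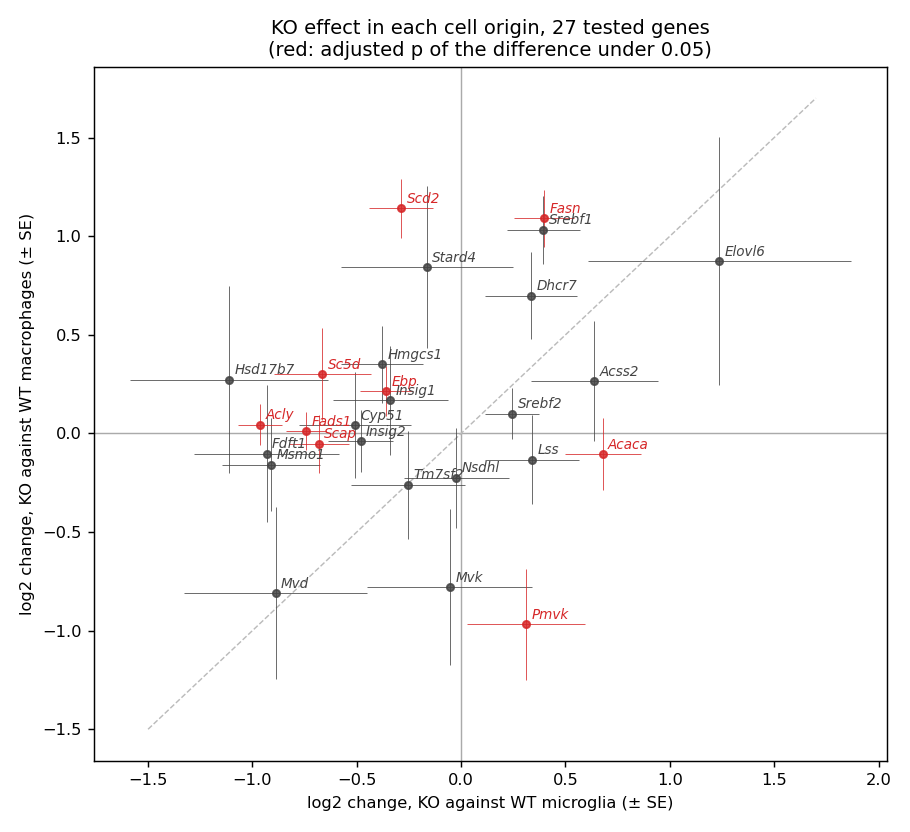
Log2 change of 27 tested genes in KO against WT microglia (horizontal) and in KO against WT macrophages (vertical), with bars for the SE, a dashed line where both changes are equal and red for genes whose difference passed the test. Acly and Fads1 lie left of 0 at a macrophage effect near 0, and Scd2 lies highest at 1.14.

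WT macrophages were also compared with WT microglia, from which they differ in origin and in the irradiation, transplant and depletion of the recipients. This comparison uses the same WT microglia and WT macrophage libraries as the comparisons above, so it is not independent of them. In WT macrophages 7 of the 33 genes were lower and 1 was higher than in WT microglia, against 20.2% and 19.2% of all genes tested, and the median of the 27 tested genes was -0.37. Acly was lower by 1.10 ± 0.10 on the log2 scale, Fdft1 by 1.33 ± 0.35, Scap by 0.85 ± 0.15, Scd2 by 0.83 ± 0.15, Insig2 by 0.63 ± 0.16, Hmgcs1 by 0.58 ± 0.19 and Ebp by 0.53 ± 0.13, and Acaca was higher by 0.79 ± 0.18. The adjusted p-values ran from 7.13e-07 for Acly to 0.0283 for Hmgcs1. The call of Hmgcs1 ended without WT macrophage replicate 1 or 2 or WT microglia replicate 1 or 2 (adjusted p = 0.0688 to 0.09905). Without KO macrophage replicate 1, Msmo1, Sc5d, Insig1 and Fasn were called as well, which made 11 lower genes. Elovl6 was called higher without WT macrophages 2 or WT microglia 1, which made 2. For Acly, the values beside each other were 683 ± 63.4 in WT microglia, 350 ± 35.8 in KO microglia and 318 ± 10.1 in WT macrophages (SD, n = 3). For Scap they were 270 ± 27.9, 168 ± 21.9 and 151 ± 29.4, and for Acaca 54.2 ± 4.18, 87.1 ± 1.13 and 94.7 ± 12.7.

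Between the KO groups, Scd2 and Fads1 were higher in macrophages and no gene of the list was lower, where 5.45% and 5.05% of all genes tested were. Scd2 was at 240 to 327 in KO microglia and 376 to 510 in KO macrophages (log2 0.60 ± 0.15, adjusted p = 0.0176). That call ended without KO macrophage replicate 3 or KO microglia replicate 1 (adjusted p = 0.0730 and 0.1045), which left 1 higher gene. Fads1 was at 201.6 to 240 and 333 to 397 (log2 0.65 ± 0.10, adjusted p = 0.000259). The other 25 tested genes did not pass, with a median over the 27 of 0.00. Acly, for example, differed by -0.09 ± 0.10 (95% interval -0.32 to 0.13) and Acaca by 0.00 ± 0.18 (-0.38 to 0.39). No gene was lower with limma or with limma's voom weights on reads, and 1, Pmvk, was lower at an unadjusted p under 0.05 (log2 -0.81 ± 0.28, adjusted p = 0.0886), with no overlap between the KO groups. Srebf1 was higher in every KO macrophage library than in any KO microglia library (log2 0.50 ± 0.17, adjusted p = 0.0893) and was called with voom weights, without KO macrophages 2 and without WT microglia 3.

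A further 50 genes of sterol and fatty acid synthesis were listed from pathway knowledge, of which 48 were in the table and 41 were tested. In KO microglia 8 of the 41 rose and 10 fell, where 21.9% of all genes tested rose and 20.6% fell. In KO macrophages 10 rose and 3 fell, against 16.0% and 15.4% of all genes tested. In both KO comparisons the largest changes belonged to Mlxipl and Acsl3. Mlxipl encodes ChREBP, the glucose-responsive transcription factor of lipogenic genes, and was at 1455, 1576 and 1437 normalized counts in WT microglia and at 46.2, 30.5 and 12.1 in KO microglia. Its log2 change there was -5.79 ± 0.33 (adjusted p = 1.2e-09). In macrophages it went from 198, 249 and 179 to 30.4, 32.3 and 48.8, a log2 change of -2.48 ± 0.33 (adjusted p = 4.3e-05). WT microglia thus stood highest, WT macrophages lay between, and the 2 KO groups lay together below both. Acsl3, a long-chain acyl-CoA synthetase, showed the reverse order. Microglia had 9.69, 24.5 and 22.8 (WT) and 378, 429 and 452 (KO), a rise of 4.49 ± 0.24. Macrophages had 99.2, 105 and 91.4 (WT) and 246, 277 and 295 (KO), a rise of 1.46 ± 0.24.

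Other named genes of that list moved less. Lbr, a lamin receptor that is also a sterol C14-reductase like Tm7sf2, rose with KO from 232 ± 14.8 to 428 ± 22.7 (microglia) and from 211 ± 24.9 to 411 ± 29.1 (macrophages). Idh1, a cytosolic source of NADPH, was at 104.5 to 156.9 in WT and 159 to 219 in KO microglia, a rise of 0.50 ± 0.18 on the log2 scale (adjusted p = 0.0306), and at 83.9 to 115 in WT and 210 to 259 in KO macrophages, a rise of 1.22 ± 0.18 (adjusted p = 8.16e-05). Pgd, a pentose phosphate enzyme that also yields NADPH, fell with KO from 504 ± 29.5 to 317 ± 6.95 (microglia) and from 699 ± 26.3 to 453 ± 0.628 (macrophages). Gpam, which adds the first acyl chain to glycerol phosphate, fell with KO from 161 ± 13.7 to 103 ± 6.72 (microglia) and from 105 ± 3.13 to 82.8 ± 3.89 (macrophages). Acss1, the mitochondrial acetyl-CoA synthetase, and Stard3, a late endosomal sterol carrier, were lower in WT macrophages than in WT microglia, by 1.09 ± 0.09 and 0.97 ± 0.13 on the log2 scale. Mlxip, a relative of Mlxipl, was higher in WT macrophages by 0.40 ± 0.09. Between the KO groups Elovl5, an elongase of polyunsaturated chains, was higher in macrophages by 0.69 ± 0.17 and Lpin1, a phosphatidate phosphatase, was lower by 0.49 ± 0.08.

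These lists were drawn up with earlier results of these data known. Of 22 listed genes of sterol efflux, storage and the LXR pathway, in which oxysterol-activated LXR receptors induce export genes and Srebf1, 20 were tested. In KO microglia 11 of the 20 rose and 3 fell, beside the 21.9% and 20.6% of all genes tested. In KO macrophages 10 rose and 4 fell, beside 16.0% and 15.4%. Pltp, a phospholipid transfer protein, rose with KO from 9.76 ± 2.87 to 1548 ± 94.8 normalized counts (microglia) and from 102 ± 7.78 to 1671 ± 441 (macrophages). Plin2, which coats lipid droplets, rose from 53.9 ± 14.9 to 510 ± 21.2 and from 153 ± 23.8 to 428 ± 130. Abcg1, a sterol exporter, rose with KO from 731 ± 122 to 2090 ± 136 (microglia) and from 678 ± 88.1 to 2047 ± 58.7 (macrophages). Npc1, the lysosomal cholesterol exporter, fell from 1231 ± 107 to 509 ± 25.3 in KO microglia, where Lpcat3, a phospholipid remodelling enzyme, fell from 412 ± 57.0 to 155 ± 6.48 and Mylip, which degrades lipoprotein receptors, from 2008 ± 236 to 1245 ± 23.3. Npc1 also fell in KO macrophages, by 0.29 ± 0.08 on the log2 scale (adjusted p = 0.0126, limma), where Lpcat3 and Mylip did not pass. In KO macrophages Rxrb, an LXR partner, and Soat1, a cholesterol esterifying enzyme, fell by 0.37 ± 0.13 and 0.35 ± 0.11 on the log2 scale (adjusted p = 0.0425 and 0.0279, limma). The WT and KO macrophage libraries overlapped for Soat1. Between the WT groups Cyp27a1, a sterol hydroxylase, was higher in macrophages by 1.82 ± 0.13, and Rxra, another LXR partner, was lower by 0.68 ± 0.12. Between the KO groups Npc2, which passes sterol to NPC1, was higher in macrophages by 0.28 ± 0.08. The lipid carrier Apoe rose from 1513 ± 257 in WT to 94960 ± 4465 in KO microglia. In macrophages it fell from 129838 ± 8565 in WT to 90084 ± 9530 in KO, by 0.53 ± 0.15 on the log2 scale (adjusted p = 0.0131).

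**Figure D5:**
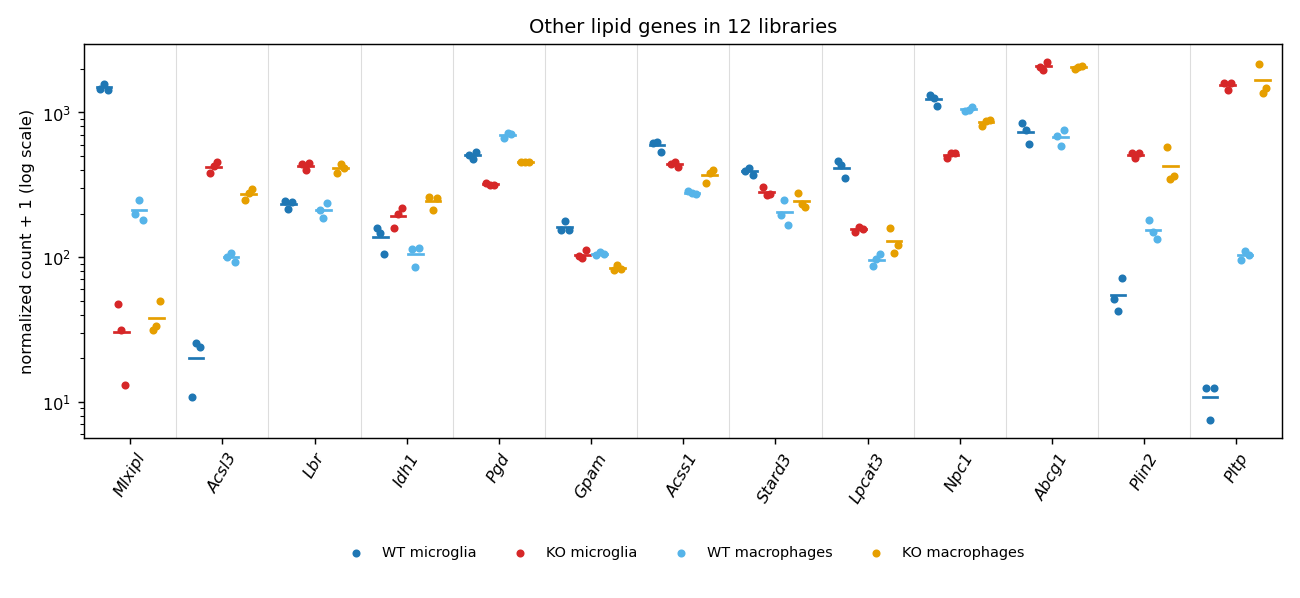
Normalized count + 1 (log scale) of 13 genes of the other 2 lists in 12 libraries; each point is a library, each bar a group mean and each colour a group. Mlxipl is highest in WT microglia (1437 to 1576), Acsl3 is lowest there (9.69 to 24.5), and Pltp and Plin2 are highest in the KO groups.

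Markers of other cells and of division moved with genotype, and their part in the results above was not tested. The 8 oligodendrocyte genes summed to 417 to 430 normalized counts in WT and 497.5 to 573 in KO microglia, and to 339 to 366 in WT and 375 to 672 in KO macrophages. Within that list Mbp averaged 155 to 211 by group, while the defining genes Mog and Cldn11 averaged at most 1.84 and 5.62 and held no reads in WT macrophages, nor Cldn11 in WT microglia. The 6 astrocyte genes summed to 46.7 to 112 in WT and 197 to 273 in KO microglia, and to 41.9 to 66.1 in WT and 139 to 178 in KO macrophages, with Gfap at 45.2 on average in KO microglia. Summed levels of the 8 neuron genes were 14.1 to 27.1 in WT and 107 to 148.5 in KO microglia, and 32.8 to 59.7 in WT and 94.1 to 159 in KO macrophages. The 4 monocyte genes summed to 21.7 to 46.4 in WT and 114 to 146 in KO microglia and to 156 to 209 in WT and 160 to 340 in KO macrophages, almost all from Ccr2, with Ly6c2 at 0 reads outside KO macrophages. The vessel genes summed to 183 to 296 and 97.2 to 122 in WT and KO microglia and to 36.2 to 59.2 and 102 to 168 in WT and KO macrophages, and the lists of neutrophils, B cells and T and NK cells to at most 14.4 in any library. Most of the vessel sum came from Pecam1 and Kdr, which differed. Pecam1 averaged 178.5 and 27.8 in WT and KO microglia and 13.3 and 103 in WT and KO macrophages. Kdr averaged 57.3 and 72.6 in WT and KO microglia, and Cdh5 10.8 and 9.11. The 14 cell cycle genes summed to 665 to 812 in WT and 1516 to 2244 in KO microglia, and to 618 to 698 in WT and 1658 to 3230 in KO macrophages, where KO macrophage replicate 1 was highest. Without that library, the rises of Srebf1, Fasn and Scd2 in KO macrophages were 0.88, 1.09 and 1.26 on the log2 scale. The remaining KO macrophage libraries, with cell cycle sums of 1702 and 1658, still lay above all WT macrophage libraries. Division and genotype therefore cannot be told apart.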

How the data were processed

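Total RNA of 12 sorted pools was sequenced after low-input stranded library preparation. Per the submitters' processing notes, bcl2fastq, CASAVA, STAR and GRCm38 were used. Their versions, the counting tool, its strand setting and the annotation were not given in the sources used here. The deposited table holds, per gene and library, log2 values made by the authors. From the values, each is log2 of 1 plus a count scaled by a size factor: undoing the log gave, within 0.01 reads, whole read numbers for 100% of 310848 values. Symbols and positions came from GENCODE M21, and 174 of 25904 genes had no symbol.

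Genes with at least 10 normalized counts in at least 3 libraries (12519, with 13385 left out) were fitted with limma 3.58.1 in R 4.3.3, with 4 group means over all 12 libraries and a mean-dependent prior variance. P-values were two-sided and adjusted by Benjamini-Hochberg over all genes tested, and 0.05 was the threshold. Fold changes were taken from log2 of the normalized count plus 1, so changes of low genes are understated. The code of the test was checked on simulated reads. Every gene and library there had the same spread beyond counting noise, and changes were made in KO microglia only. That check gives no error rate for these data. The text names all members and, from each other list, up to 3 called genes higher and 3 lower per comparison, taking the largest changes among genes averaging at least 100 in the higher group. Tgfbr2, Cx3cr1, Adgre1 and Itgam were named as checks of label and gate. A result that the rule names is not reported here. Ddx3y, marker genes and genes overlapping a member were named for values given beside a result. Members and lists were chosen with earlier results of these data known. Alternatives were TMM scaling, a pseudocount of 5, no filter, a filter at 50, a fit of the compared groups only, Ddx3y as a covariate, each library left out, and voom weights on recovered reads, the last added after seeing the data.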

Additional observations from a re-analysis of the deposited data

Results flagged for a closer look

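The KO effect differed between macrophages and microglia, by limma's test of the difference over all genes, for 9 genes of the synthesis list. The differences (macrophages minus microglia, log2) were 1.43 for Scd2, 1.01 for Acly, 0.97 for Sc5d, 0.75 for Fads1, 0.69 for Fasn, 0.63 for Scap and 0.57 for Ebp, and -0.78 for Acaca and -1.28 for Pmvk. Those of Scd2, Acly and Fads1 passed in all fits tried.

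Among the named genes of the wider synthesis list, the differences were 3.32 for Mlxipl, 0.83 for Acss1, 0.76 for Stard3, -0.49 for Mlxip and -3.04 for Acsl3. Among those of sterol efflux and storage they were 1.81 for Lpcat3, 0.98 for Npc1, 0.74 for Rxra, -1.98 for Cyp27a1, -3.21 for Pltp and -6.51 for Apoe.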

How the results depend on the processing

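No paired analysis was possible because the labels give no replicate numbers. The planned edgeR and DESeq2 fits were not run, and voom on the recovered reads was run in their place. Of 34 called results for single genes of the list, 631 values under other settings kept their direction, 540 of them past the threshold and 91 not. Without a filter, 1 gene was higher and 5 lower in KO microglia, and the KO effect was higher in macrophages for 4 genes and lower for 0. With a filter at 50, Pmvk, which reached at most 38.6 normalized counts, was not fitted. Therefore 0 genes were lower in KO macrophages and 1 gene had a lower KO effect in macrophages in that fit. With Ddx3y as a covariate, 5 genes were lower in KO microglia, 1 was higher in KO macrophages than in KO microglia and 0 had a lower KO effect in macrophages. With 1 library left out, KO microglia had 1 to 3 higher and 5 to 8 lower genes and KO macrophages 3 to 4 higher and 0 to 2 lower. WT macrophages had 1 to 2 higher and 6 to 11 lower genes than WT microglia, and KO macrophages 1 to 3 higher than KO microglia. The KO effect was then higher in macrophages for 4 to 7 genes and lower for 0 to 2. The cause was not tested. Depth limits the 6 untested genes most.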
